A study of Mus musculus with 12 samples.

Results

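The genes of the NF-kB pathway were examined in the RNA of regulatory T (Treg) cells with and without CNS4, a distal enhancer of the Foxp3 gene. Treg cells are CD4 T cells that hold immune responses in check, and Foxp3 is the transcription factor that defines them. The 34 genes were chosen by name as Rel subunits, their inhibitors, the kinases and adaptors that release them, the enzymes that edit ubiquitin chains on the way, and 2 inducible targets. A gene was kept when its mean over the 12 libraries was 1 CPM (read counts per gene, scaled by library size) or more, which left 25 of the 34 genes out of 55453 in the table. Of these 25, 16 lie on the plus strand and 9 on the minus strand. Minus-strand genes are given apart, because 95.8 to 97.2% of the reads of protein-coding genes in each library fell in plus-strand genes. The 9 genes not kept, Relb, Nfkbia, Nfkbib, Nfkbiz, Bcl3, Tnfaip3, Map3k14, Tab2 and Otulin, are all on the minus strand, so their low counts are no measure of their expression.

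The cells were sorted as CD4+Foxp3+ from C57BL/6 mice and lysed in TRIzol straight after the sort, with no treatment. There were 4 groups of 3 libraries: males with CNS4 floxed, which the labels equate with wild type, males with CNS4 knocked out, females labelled as CNS4 floxed heterozygotes, and females labelled as CNS4 knockout heterozygotes. Mice were matched for age and sex, per the series' design text, which gives no age. The second allele of the heterozygous females is not described in the labels, nor is the Cre or germline origin of the knockout, and every title holds the letters Thy without spelling out an organ. Only the females are labelled heterozygotes, so any difference between the sexes below cannot be told apart from one between heterozygous and other knockouts. Nothing in the labels tells whether the libraries of a group stem from separate animals, so p-values measure only the spread between these samples, which may be technical.

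NF-kB proteins are dimers of Rel subunits that wait in the cytoplasm, bound by inhibitors of the IkB family. Signals from the antigen receptor, from TNF receptors or from receptors for interleukins of the IL-1 family activate the IKK complex, which marks the inhibitor for destruction and lets the dimer enter the nucleus. A second, slower branch runs through NIK and the processing of the Nfkb2 product. In developing Treg cells the pathway is known for c-Rel, which acts at the Foxp3 locus, and several inhibitors are themselves targets of NF-kB, which makes the pathway a feedback loop.

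The promoter letters of the members are given first. The kappa B consensus, the 10-base site that Rel dimers bind, was searched on both strands in RefSeq promoter windows on build GRCm38.p6, from 250 bases before to 50 bases after each start site, counting overlapping matches. Of the 34 genes, 27 were in the promoter table, and 12 of them (44.4%) held at least 1 match, against 1388 of 27025 genes (5.14%) over the whole table and 498 of 8089 tested genes (6.16%). On the plus strand 7 of 13 members held one (53.8%): Nfkb2, Nfkbie, Nfkbid, Bcl10, Traf3, Map3k7 and Cyld. Relb, Nfkb1, Nfkbiz, Ikbkb, Malt1, Tab1 and Cd83 were named only. A match describes the sequence and says nothing about binding in these cells. The stretches that follow belong to 5 members with matches on whose values the results turn. Capitals mark the matches, each stretch reads 5′ to 3′ on the strand of its gene, and positions count back from the start site. The counts were made on build mm9, and none of these coordinates are in that build.
Nfkb2, chr19:46304688-46304717, plus strand, -49 to -20, within an exon that GENCODE M21 gives to a longer Nfkb2 transcript and to AC114539.1 on the other strand: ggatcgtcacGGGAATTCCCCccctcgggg
Nfkbid, chr7:30422156-30422275, plus strand, -250 to -131 of its second start site, within an intron of a longer Nfkbid transcript: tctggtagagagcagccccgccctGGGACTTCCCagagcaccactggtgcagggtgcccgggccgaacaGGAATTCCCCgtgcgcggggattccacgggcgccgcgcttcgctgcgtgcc
Nfkbie, chr17:45555580-45555699, plus strand, -120 to -1, in no annotated transcript: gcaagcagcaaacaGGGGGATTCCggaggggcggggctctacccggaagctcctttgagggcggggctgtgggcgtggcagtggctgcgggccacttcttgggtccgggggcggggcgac
Traf3, chr12:111166250-111166369, plus strand, -120 to -1, within an intron of 4930595D18Rik on the other strand: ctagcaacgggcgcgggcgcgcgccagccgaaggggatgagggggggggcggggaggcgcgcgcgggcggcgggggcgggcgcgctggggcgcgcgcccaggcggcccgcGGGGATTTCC
Rel, chr11:23770971-23771090, minus strand, -121 to -2, in no annotated transcript: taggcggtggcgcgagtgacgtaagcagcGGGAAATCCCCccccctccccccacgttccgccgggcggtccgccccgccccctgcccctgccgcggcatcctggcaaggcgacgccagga

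In the Rel and Nfkb2 stretches 2 matches overlap in 11 letters, and the first 10 of them read the same on both strands in the Nfkb2 site. A further Nfkb2 match, GGGGCTTTCC, began 11 bases before the same start site, and its other start sites held GGAATGTCCC and GGGACTTTCC. The Traf3 match ended at the last base before the start site. The Nfkbid stretch held a pair of matches, the first 226 and the second 181 bases before its second start site.

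**Figure D1:**
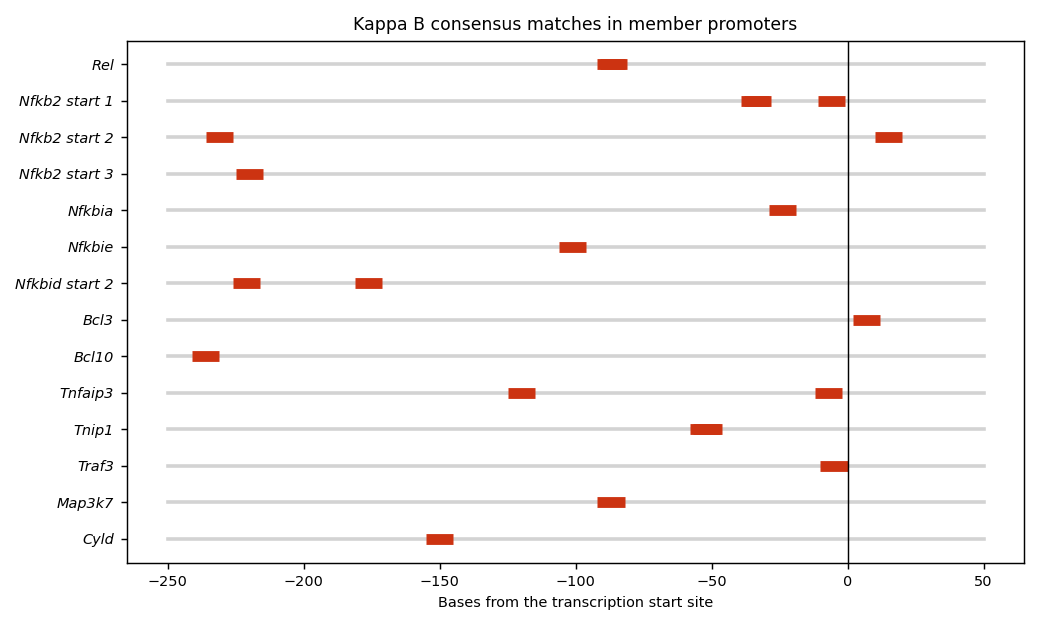
Kappa B consensus matches in the promoter windows of the members that hold one. The horizontal axis is the distance in bases from the transcription start site (vertical line), each grey line is 1 window of 300 bases and each red bar is a match on either strand. Matches lie on both sides of the start site in Nfkb2, whose 3 start sites all hold one. The windows of Nfkb2 start sites 2 and 3 overlap, and the same GGGACTTTCC is drawn in both.

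The labelled cell type was checked against a list of 10 Treg and CD4 T cell markers, whose summed level was 8496 to 11885 CPM per library, with Foxp3 at 685 to 2675 CPM and Il2ra at 1904 to 3163 CPM. The libraries held 12423335 to 30244505 reads in genes (median 14596845), and male knockout 3 was the deepest. Female knockout libraries 1 and 3 stood apart. Foxp3 was at 685 and 825 CPM there and at 1824 CPM in female knockout 2. Male knockout libraries held 1878, 1462 and 2037 CPM of Foxp3, so all knockout libraries lay below every floxed library of either sex. Floxed libraries held 2227 to 2675 CPM of Foxp3 in males and 2582 to 2658 CPM in females. In female knockout 1 and 3, mitochondrially encoded genes took 4.04 and 3.40% of counts against 1.17 to 2.77% in the other 10 libraries. In each library, the deviation of each gene from its mean log2 CPM over the 12 libraries was correlated with its GC content. The Spearman correlation across genes was -0.36 and -0.26 in female knockout 1 and 3 against -0.11 to 0.36 in the others. The summed level of 19 myeloid and dendritic markers was 820 to 1617 CPM in the female knockout libraries, 264 to 1100 in female floxed, 228 to 1722 in male knockout and 102 to 1592 in male floxed libraries. Krt5 and Foxn1, of thymic epithelium, had no reads in any library, and Pax5, of B cells, had at most 1 read in a library. All 3 are minus-strand genes, so these counts do not show that such cells were absent. The plus-strand genes Cd79a, of B cells, and Epcam and Psmb11, of thymic epithelium, had reads in every library. Cd79a reached 58.9 CPM. The 6 CD8 and double-positive thymocyte markers summed to 179 to 356 CPM in male floxed and 165 to 382 in male knockout libraries. In females they summed to 271 to 384 CPM in floxed and 282 to 651 CPM in knockout libraries. The part of these differences in the results below was not tested, except where a value with them removed is given. In such bulk RNA, fewer cells of a type and less RNA per cell cannot be told apart.

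No member passed the threshold in any comparison of knockout with floxed. Comparisons were made by edgeR's quasi-likelihood test with an adjusted p under 0.05 over all 12411 tested genes, where 411 genes (3.31%) passed over both sexes, 3 (0.0242%) in males, 25 (0.201%) in females and 0% in the difference between the sexes. Among the 25 members edgeR called 0 in each, with 2 at an unadjusted p under 0.05 over both sexes, 0 in males, 4 in females and 0 in the difference between the sexes. The same unadjusted threshold was met by 20.2% of all tested genes over both sexes, 8.12% in males, 19.2% in females and 2.73% in the difference, so the members' share was not above that of all genes in any of them. DESeq2 called 1 member over both sexes and 1 in females, Rel each time, where it called 9.10 and 5.69% of all genes, and 0 in males and in the difference. Limma-voom with library quality weights called 11 over both sexes, 11 in females, 0 in males and 5 in the difference, where it called 37.3, 43.8, 1.43 and 8.38% of all genes. The median log2 fold change of the 25 members was -0.10 over both sexes against -0.02 for all tested genes, -0.01 against 0.01 in males, and -0.16 against -0.02 in females. In females the 16 plus-strand members had a median of -0.42, with 12 of the 16 below 0, and the 9 minus-strand members a median of -0.01, with 5 below 0. Of all tested genes, 6360 lay below 0 and 6048 above 0 in females.

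Of the 5 Rel subunits, Rela and Nfkb2 are on the plus strand, and they had the narrowest and the widest range across libraries of the plus-strand members. Rela encodes p65, the main activating subunit of the classical branch. Its level was 367, 401 and 391 CPM in male floxed libraries 1, 2 and 4 and 370, 373 and 437 CPM in male knockout libraries 1, 2 and 3. In females it was 415, 398 and 406 CPM in floxed and 335, 374 and 384 CPM in knockout libraries. The highest library was only 1.30-fold above the lowest. The male groups overlapped, whereas all 3 female knockout libraries lay below all 3 female floxed ones. On the log2 scale, knockout differed from floxed by -0.07 for Rela (SE 0.07, edgeR adjusted p = 0.611) over both sexes, with 0.02 (SE 0.10) in males. The female difference of Rela was -0.16 (SE 0.10, edgeR adjusted p = 0.372). Rela, whose exons are 59.4% GC, turned to 0.45 (SE 0.19, adjusted p = 0.224) over both sexes and 0.73 (SE 0.28) in females when a trend on GC content and length was removed from each library.

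Nfkb2 encodes p100, the precursor of p52 in the slower branch and itself a target of NF-kB, and its highest library was 30.9-fold above its lowest. Male floxed libraries held 618, 802 and 510 CPM of Nfkb2 and male knockout libraries 306, 309 and 974 CPM. Female floxed libraries held 168, 342 and 371 CPM and female knockout libraries 31.6, 268 and 40.6 CPM. The highest of all was male knockout 3 and the lowest were female knockout 1 and 3, while female knockout 2 lay among the female floxed libraries. Group means were 643 ± 148 CPM in male floxed, 530 ± 385 in male knockout, 294 ± 110 in female floxed and 113 ± 134 in female knockout (SD, n = 3 each). Over both sexes the estimate for Nfkb2 was -0.83 log2 (SE 0.54, edgeR adjusted p = 0.402), with -0.28 (SE 0.76) in males. In females it was -1.37 (SE 0.77, edgeR adjusted p = 0.332). Exons of AC114539.1 and Psd cover 830 bases of Nfkb2 on the other strand, and the strand setting of the counting is not given in the sources used here, so reads of the pair cannot be told apart.

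Rel, Nfkb1 and Relb are on the minus strand, and their counts were small. Rel encodes c-Rel, and its 14 to 64 reads per library gave 3.59, 2.72 and 3.20 CPM in male floxed and 2.70, 1.92 and 2.43 CPM in male knockout libraries. In females Rel stood at 3.24, 3.85 and 2.88 CPM in floxed and at 0.845, 2.07 and 1.11 CPM in knockout libraries. Every knockout library lay below every floxed library of the same sex, the only kept member of which this held in both sexes. In males the closest libraries were nearly equal, at 2.70 and 2.72 CPM. Of all tested genes, 6.13% were lower in this way in males and 9.70% in females, and the share in both sexes was not counted. Nfkbiz, which was not kept, was also lower in both, on 1 to 14 reads per library. For Rel, knockout was below floxed by a log2 difference of -0.87 (SE 0.22, edgeR adjusted p = 0.0648, unadjusted 0.00275) over both sexes, with -0.43 (SE 0.31) in males. In females it was -1.31 (SE 0.32, edgeR adjusted p = 0.101). Leaving out female knockout 1 and 3, which leaves 1 female knockout library, made the value over both sexes -0.55 (SE 0.21). With female knockout 2 left out instead it became -1.09 (SE 0.18, edgeR adjusted p = 0.00344), in a fit that called 22.6% of all genes. Nfkb1, the precursor of p50, held 0.690, 0.854 and 1.04 CPM in male floxed, 1.51, 1.19 and 0.684 in male knockout, 1.42, 0.982 and 1.47 in female floxed and 1.15, 1.5 and 1.25 in female knockout libraries. Its groups overlapped in both sexes, and the estimate was 0.19 log2 (SE 0.24, edgeR adjusted p = 0.679). Relb, the partner of p52, was below the mean of 1 CPM, at 1.24, 2.33 and 0.626 CPM in male floxed, 0.440, 0.595 and 3.27 in male knockout, 0.203, 0.831 and 0.551 in female floxed and 0.181, 0.786 and 0.148 in female knockout libraries. The highest Relb library was male knockout 3, as for Nfkb2.

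The IkB proteins on the plus strand were Nfkbie and Nfkbid. Nfkbie encodes IkB epsilon, a cytoplasmic inhibitor, and held 219, 234 and 262 CPM in male floxed and 272, 262 and 294 CPM in male knockout libraries. Female floxed libraries were close together at 248, 242 and 244 CPM, and female knockout libraries held 121, 266 and 158 CPM. In males the knockout libraries all lay above the floxed ones, though male floxed 4 and male knockout 2 both round to 262 CPM. In females the groups overlapped, because female knockout 2 was above all 3 floxed libraries while 1 and 3 were far below them. Nfkbie gave a log2 difference of -0.11 (SE 0.16, edgeR adjusted p = 0.720) over both sexes, with 0.21 (SE 0.23) in males. The female value was -0.43 (SE 0.23, edgeR adjusted p = 0.314), and the difference between the sexes was -0.64 (SE 0.32, adjusted p = 0.892).

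Nfkbid encodes IkBNS, a nuclear IkB protein known for its part in the maturation of Treg precursors. Its level was 345, 356 and 286 CPM in male floxed and 248, 210 and 398 CPM in male knockout libraries. In females it was 130, 247 and 244 CPM in floxed and 34.1, 211 and 49.2 CPM in knockout libraries. As for Nfkb2, male knockout 3 was highest, female knockout 1 and 3 were lowest, and the groups overlapped in both sexes. Nfkbid differed by -0.64 log2 (SE 0.41, edgeR adjusted p = 0.391) over both sexes and -1.08 (SE 0.59, adjusted p = 0.320) in females.

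The IKK complex holds the scaffold NEMO, encoded by Ikbkg, and the kinases encoded by Ikbkb and Chuk, which are on the minus strand. Ikbkg held 227, 210 and 202 CPM in male floxed, 260, 223 and 206 in male knockout, 250, 228 and 237 in female floxed and 301, 240 and 302 in female knockout libraries. It ran against most plus-strand members, with female knockout 1 and 3 the highest of the 12. The groups overlapped in both sexes, and Ikbkg differed by 0.17 log2 (SE 0.09, edgeR adjusted p = 0.293) over both sexes. Ikbkg shares 418 exonic bases with G6pdx on the other strand.

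Prkcq encodes protein kinase C theta, which couples the antigen receptor to Bcl10 and Malt1. Male floxed libraries held 767, 1155 and 465 CPM of Prkcq and male knockout libraries 437, 368 and 1134 CPM. Female floxed libraries held 363, 517 and 458 CPM and female knockout libraries 307, 401 and 293 CPM. Male floxed 1 and 2 and male knockout 3 were the 3 highest, and the genotypes overlapped in both sexes. Over both sexes Prkcq differed by -0.36 log2 (SE 0.30, edgeR adjusted p = 0.511). Bcl10, the adaptor, ran from 149 to 238 CPM and differed in females by -0.31 log2 (SE 0.13, edgeR adjusted p = 0.232), and Malt1, the protease, ran from 57.2 to 225 CPM with a female estimate of 0.11 (SE 0.40).

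Among the adaptors, Traf6 encodes the ubiquitin ligase that serves receptors of the IL-1 and Toll families. It held 381, 365 and 255 CPM in male floxed and 217, 185 and 348 CPM in male knockout libraries. In females it held 160, 297 and 262 CPM in floxed and 76.4, 188 and 73.3 CPM in knockout libraries. Knockout means were lower in both sexes, 250 ± 85.9 against 334 ± 68.7 CPM in males and 113 ± 65.3 against 240 ± 71.4 CPM in females (SD, n = 3 each), but the libraries overlapped in both. Traf6 differed by -0.75 log2 (SE 0.28, edgeR adjusted p = 0.174, unadjusted 0.0223) over both sexes and -1.09 (SE 0.40, adjusted p = 0.206) in females.

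Traf3 encodes the adaptor that keeps NIK levels low in unstimulated cells. Its levels were 200, 185 and 159 CPM in male floxed, 185, 153 and 296 in male knockout, 117, 155 and 156 in female floxed and 59.4, 143 and 71.9 in female knockout libraries. Male knockout 3 was again highest and female knockout 1 and 3 lowest. Traf3 differed by -0.21 log2 (SE 0.23, edgeR adjusted p = 0.627) over both sexes, with 0.22 (SE 0.33) in males. The female value was -0.64 (SE 0.33, edgeR adjusted p = 0.302). Tab3, an adaptor of the kinase TAK1, held 30.1, 49.0 and 17.7 CPM in male floxed, 17.8, 18.3 and 48.3 in male knockout, 13.4, 22.8 and 20.6 in female floxed and 11.8, 17.9 and 9.96 in female knockout libraries. Its groups overlapped in both sexes, and it differed by -0.36 log2 (SE 0.33, edgeR adjusted p = 0.561) over both. Map3k7, which encodes TAK1 itself, and its activator Tab1 gave 0.13 (SE 0.33) and 0.02 (SE 0.12) over both sexes.

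Among the enzymes that edit ubiquitin, Rnf31 encodes HOIP, the catalytic part of the complex that builds linear ubiquitin chains. It held 242, 237 and 232 CPM in male floxed and 195, 186 and 270 CPM in male knockout libraries. In females it held 123, 217 and 232 CPM in floxed and 43.0, 171 and 44.7 CPM in knockout libraries. The male floxed libraries were close together and lay between the male knockout ones, and in females only knockout 1 and 3 lay below the floxed libraries. For Rnf31 the log2 difference was -0.64 (SE 0.34, edgeR adjusted p = 0.311) over both sexes and -1.15 (SE 0.48, adjusted p = 0.241) in females. Cyld, the deubiquitinase that opposes such chains, had the second narrowest range of the plus-strand members, from 590 to 790 CPM, and differed by -0.05 log2 (SE 0.09).

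Cd83, a surface protein that is induced through NF-kB, had opposite signs in the sexes. Male floxed libraries held 549, 601 and 575 CPM and male knockout libraries 819, 712 and 814 CPM. Female floxed libraries held 443, 586 and 586 CPM and female knockout libraries 182, 760 and 240 CPM. All 3 male knockout libraries lay above all 3 male floxed ones, and so did female knockout 2 above the female floxed libraries, whereas female knockout 1 and 3 lay below every other library. In males Cd83 differed by 0.44 log2 (SE 0.42, edgeR adjusted p = 0.974). In females it differed by -0.45 (SE 0.42, edgeR adjusted p = 0.546), and the difference between the sexes was -0.89 (SE 0.60, edgeR adjusted p = 0.892). With female knockout 1 and 3 left out, which leaves 1 female knockout library, the Cd83 value was 0.50 (SE 0.17) in females and 0.47 (SE 0.10) over both sexes.

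**Figure D2:**
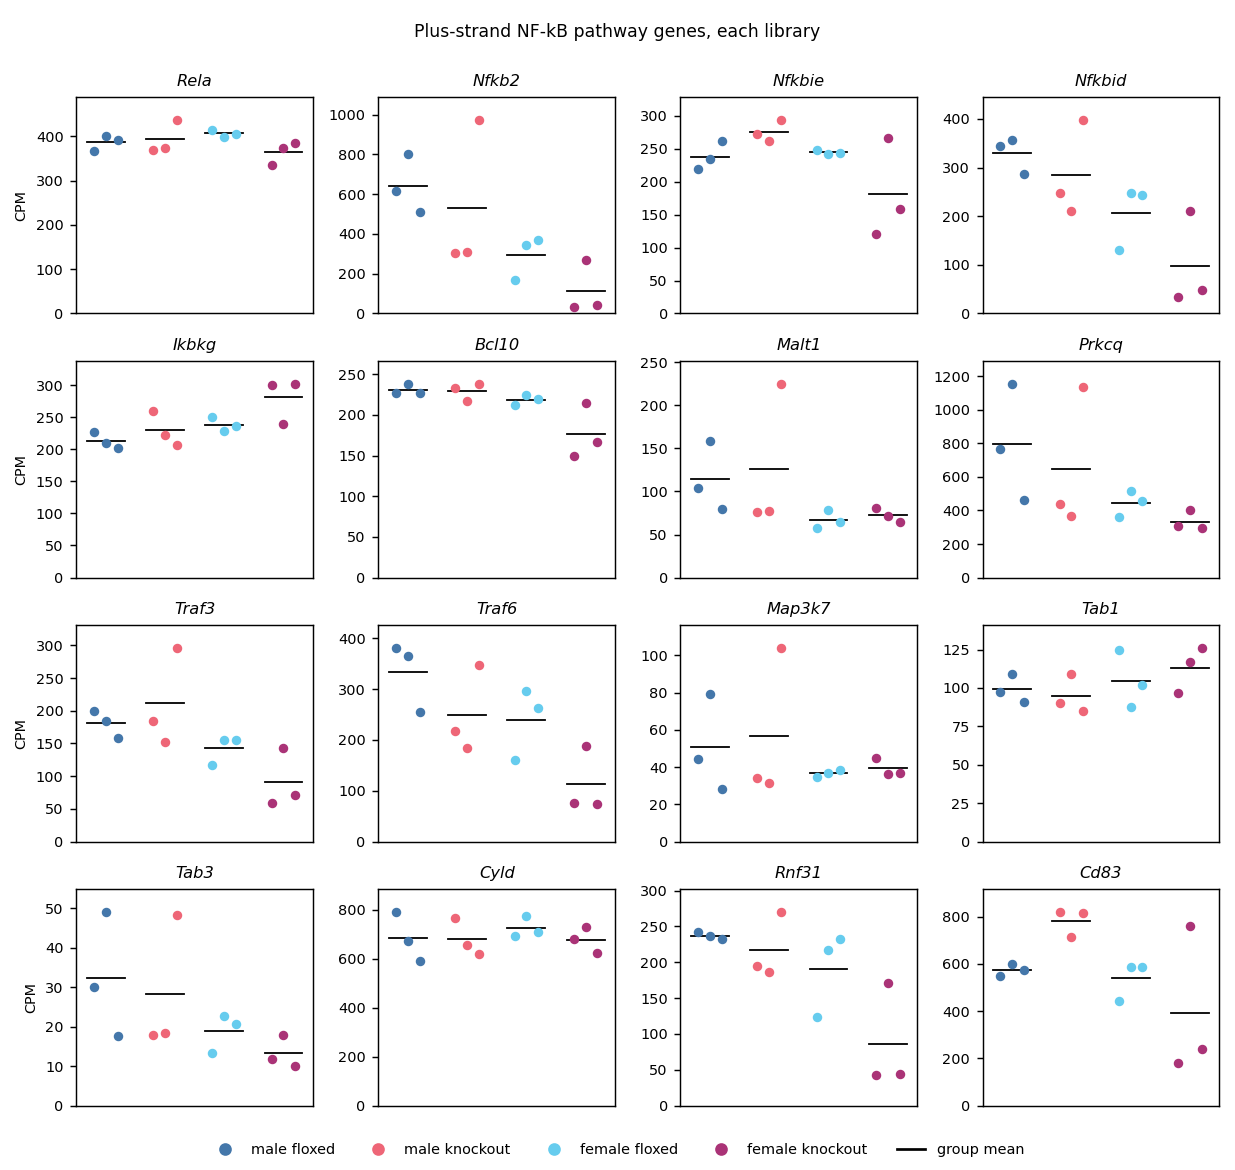
Level in CPM (vertical axes, each from 0) of the 16 plus-strand members in each of the 12 libraries. Points are libraries, coloured by group, and black lines are the means of 3 libraries. Rela lies between 335 and 437 CPM in all groups, while Nfkb2 runs from 31.6 to 974 CPM.

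Complete separation of the genotypes was counted gene by gene. In males Nfkbie and Cd83 were higher in every knockout library, 2 of 25 members against 8.20% of tested genes, and Rel was lower in every one, 1 of 25 against 6.13%. In females 0 of 25 members were higher in every knockout library against 15.3% of tested genes, and Rel and Rela, 2 of 25, were lower in every one against 9.70%. The male shares were close to those of all genes, and nothing about the members is read from them.

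**Figure D3:**
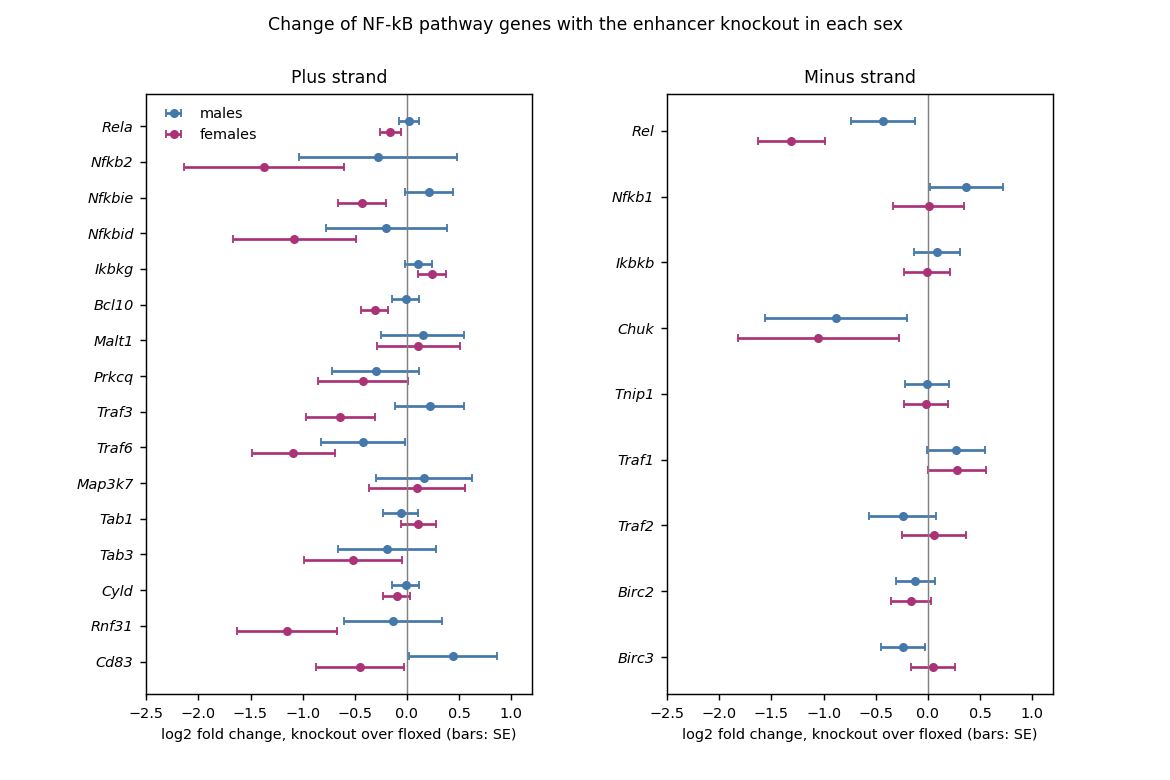
Log2 fold change of knockout over floxed for each kept member in males (blue) and females (purple), with plus-strand genes on the left and minus-strand genes on the right. Points are edgeR estimates and bars are 1 SE; the female points of Nfkb2, Nfkbid, Traf6, Rnf31, Rel and Chuk lie below -1 and no member passed the threshold.

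The plus-strand members varied between libraries along lines that only partly followed the groups. Female knockout 1 and 3 were the 2 lowest of the 12 libraries for 10 of the 16 plus-strand members (62.5%), against 2492 of 9473 tested plus-strand genes (26.3%). These were Nfkb2, Nfkbie, Nfkbid, Bcl10, Prkcq, Traf3, Traf6, Tab3, Rnf31 and Cd83. Male floxed 1 and 2 and male knockout 3 were the 3 highest for 8 of the 16 (50%), against 1162 tested plus-strand genes (12.3%): Nfkb2, Nfkbid, Malt1, Prkcq, Traf3, Traf6, Tab3 and Rnf31. Among the 9 minus-strand members the low pair held for 2, Rel and Chuk (22.2%), and the high trio for 1, Chuk (11.1%), against 22.2 and 8.81% of tested minus-strand genes. These were shares read after the values were seen, and they carry no test. The first principal component, the main axis of variation between libraries, was computed over the tested genes without the members and held 53.7% of the variance. Female knockout 1 and 3 scored 86.8 and 81.2, and male floxed 1 and 2 and male knockout 3 scored -39.5, -60.4 and -65.8. These were the ends of the axis, so this order of libraries was not particular to the members. All male libraries scored below 0, female knockout 2 scored 11.5, and the female floxed libraries scored 29.5, -9.27 and -6.88. Rela, Ikbkg, Malt1, Map3k7, Tab1 and Cyld did not share the low pair, and among them Ikbkg was highest there.

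**Figure D4:**
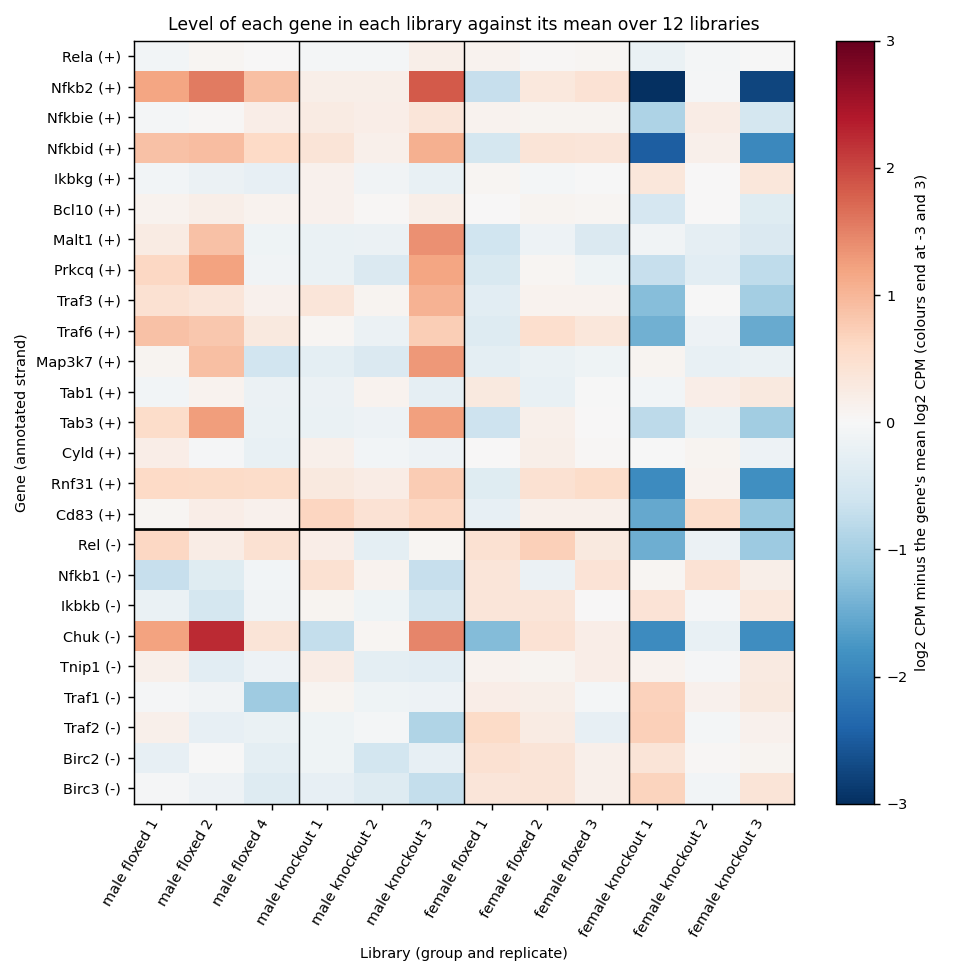
Level of each kept member in each library as the log2 CPM minus its mean log2 CPM over the 12 libraries (colour, ending at -3 and 3). Rows are genes with their strand, the thick line parts plus from minus strand, and thin lines part the groups. The dark blue cells of Nfkb2, Nfkbid, Traf6, Rnf31 and Cd83 stand in female knockout 1 and 3.

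The female values therefore turned on which knockout libraries were included. Without female knockout 2, edgeR called 8 members over both sexes, Bcl10, Cd83, Nfkb2, Nfkbid, Nfkbie, Rel, Rnf31 and Traf6, all lower, where it called 22.6% of all genes. In females it then called 9, these 8 and Traf3, all lower, against 23.7% of all genes, and 7 in the difference between the sexes against 8.5%. The female log2 fold change became -3.01 (SE 0.59) for Nfkb2, -2.30 (SE 0.36) for Nfkbid, -2.11 (SE 0.26) for Rnf31, -1.67 (SE 0.33) for Traf6 and -1.34 (SE 0.16) for Cd83. Leaving out female knockout 1 and 3 leaves 1 female knockout library, assumed to vary like the others, so calls are not compared with those above. The same values were then -0.13 (SE 0.68), 0.03 (SE 0.41), -0.16 (SE 0.33), -0.35 (SE 0.42) and 0.50 (SE 0.17). With the GC and length trend removed they were -0.94 (SE 0.43), -0.83 (SE 0.39), -1.05 (SE 0.39), -1.04 (SE 0.34) and -0.40 (SE 0.35). With the level of the myeloid markers as a covariate they were -1.09 (SE 0.80), -0.87 (SE 0.61), -1.02 (SE 0.51), -0.83 (SE 0.37) and -0.37 (SE 0.46).

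**Figure D5:**
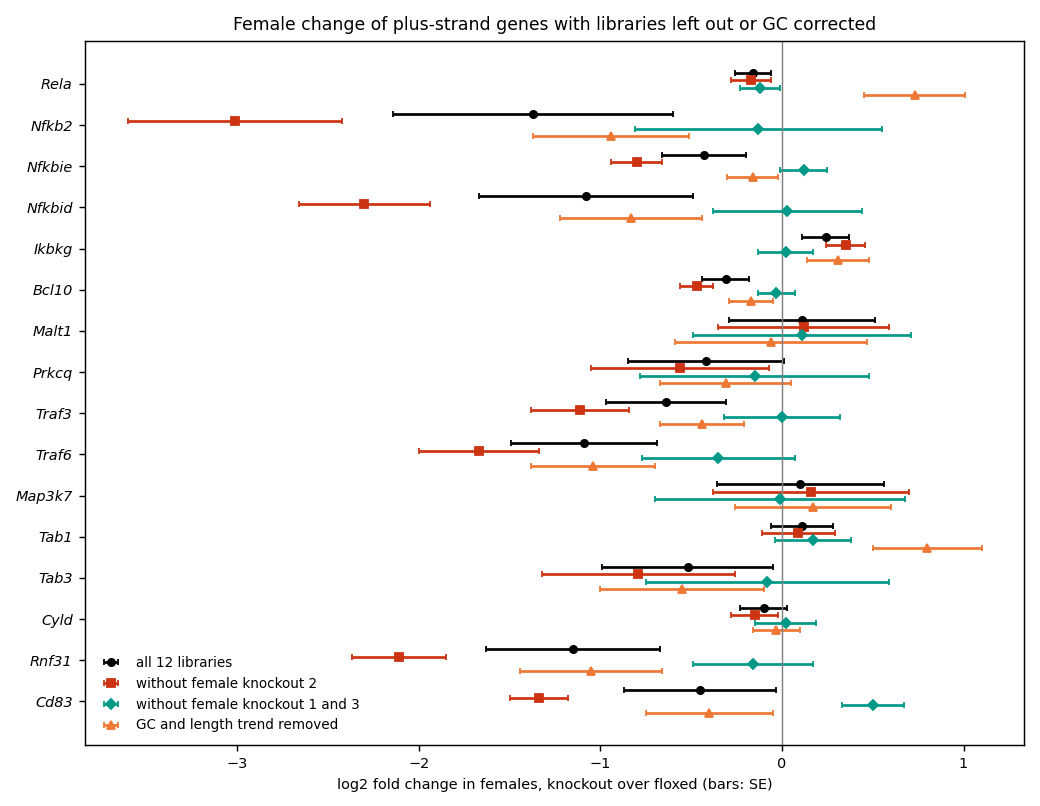
Female log2 fold change of knockout over floxed for the 16 plus-strand members under 4 fits: all 12 libraries, without female knockout 2, without female knockout 1 and 3, and with the GC and length trend removed. Points are edgeR estimates and bars are 1 SE; Nfkb2 moves from -1.37 to -3.01 without female knockout 2 and to -0.13 without female knockout 1 and 3.

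Levels of different genes were compared per kilobase of exon, among plus-strand members of the floxed libraries. The length was that of the merged exons of all annotated transcripts, 18040 bases for Malt1 and 12576 for Cyld. Genes expressed as shorter transcripts may therefore rank too low. In floxed females Cd83 was highest at 209 ± 32.3 CPM per kilobase, followed by Rela at 132 ± 2.80 and Nfkbid at 88.2 ± 28.6 (SD, n = 3 each). Nfkbie at 80.3, Nfkb2 at 64.0, Prkcq at 63.0 and Cyld at 57.6 CPM per kilobase came next, and the ranges of Nfkbid, Nfkbie, Nfkb2 and Prkcq did not all part from their neighbours. The lowest were Map3k7 at 5.73, Malt1 at 3.70 and Tab3 at 2.86 CPM per kilobase. In floxed males Cd83 was again highest at 214 to 234 CPM per kilobase, and Nfkb2 and Nfkbid, both at 140, came before Rela at 126 ± 5.70. The ranges of Nfkb2, Nfkbid and Rela overlapped in floxed males.

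The other minus-strand members also showed no call. Birc2 and Birc3, which encode the ligases cIAP1 and cIAP2 that act with Traf2 and Traf3, ran from 5.95 to 12 CPM and from 15.4 to 40.1 CPM, with log2 fold changes of -0.14 (SE 0.14) and -0.10 (SE 0.15) over both sexes. Traf1, an inducible adaptor, gave 0.28 (SE 0.20), Traf2 gave -0.09 (SE 0.22), Tnip1, a ubiquitin-binding inhibitor, gave -0.02 (SE 0.15) and Ikbkb gave 0.04 (SE 0.16). Chuk, with 5 to 97 reads per library, had the widest range of the 9, 17.4-fold, and gave -0.97 (SE 0.51, edgeR adjusted p = 0.311). Of the genes below 1 CPM, Map3k14, which encodes NIK, is named after its values were seen. With 2 to 16 reads per library it held 0.207, 0.233 and 0.209 CPM in male floxed, 0.881, 0.463 and 0.608 in male knockout, 0.878, 0.755 and 0.979 in female floxed and 0.121, 0.286 and 0.443 in female knockout libraries. Its knockout libraries lay above the floxed ones in males, as for 8.20% of tested genes, and below them in females, as for 9.70%. The share of genes with both was not counted, and such low counts are no measure of expression. For Map3k14 the difference between the sexes was -3.18 (SE 0.66, edgeR adjusted p = 0.892, unadjusted 5.6e-04). Of the other genes not kept, Nfkbiz was lower in every knockout library of both sexes and Tnfaip3 in those of males.

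Promoter sequence and change did not line up in one direction. The 7 plus-strand members with a kappa B match had a median log2 fold change of -0.16 over both sexes and -0.43 in females. The 6 without a match, Rela, Ikbkg, Prkcq, Traf6, Tab3 and Rnf31, had medians of -0.36 and -0.47. Nfkb2 and Nfkbid, whose promoters hold several matches, lay among the lowest, but so did Traf6 and Rnf31, which hold none in these windows.

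Around the members, a few genes of the wider pathway did pass the threshold over both sexes, where 3.31% of all tested genes did and the median log2 fold change of all was -0.02. Of 37 other pathway genes 25 were tested, and 2 were higher and 1 lower, with a median log2 fold change of -0.09. Irak2, a kinase of IL-1 family and Toll-like receptors, fell by 0.44 on the log2 scale (SE 0.09, edgeR adjusted p = 0.0220). Its male means were 286 ± 24.5 CPM floxed and 225 ± 16.7 CPM knockout, and its female means 312 ± 1.29 and 216 ± 30.9 CPM (SD, n = 3 each). Its knockout libraries held 235, 206 and 234 CPM in males and 197, 252 and 199 CPM in females, below every floxed library, which held 258 to 313 CPM. Tnip3, a ubiquitin-binding inhibitor, rose by 0.84 (SE 0.18, edgeR adjusted p = 0.0318), and Ube2n, the conjugating enzyme that works with Traf6, rose by 0.44 (SE 0.09, edgeR adjusted p = 0.0325). Tnip3 stood at 12 to 16.8 CPM in floxed and 16.6 to 33.4 CPM in knockout libraries, overlapping only through male knockout 3. Ube2n stood at 65.1 to 74.3 CPM in floxed and 81.3 to 111 CPM in knockout libraries of both sexes, without overlap.

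Of 30 target genes 23 were tested, 1 was higher and 0 were lower, and the median log2 fold change was 0.44. That is 1 call in 23, near the share of all tested genes. The myeloid and dendritic markers lay on the same side of 0 as the targets' median, with 11 of 11 tested markers above 0, none of them past the threshold, and a median of 0.74 over both sexes, and their part in the targets' median was not tested. The called gene, Serpina3g, a protease inhibitor, rose by 1.38 (SE 0.16, edgeR adjusted p = 0.00325), from 68.1 to 117 CPM in floxed libraries to 160 to 266 CPM in knockout libraries. Of 17 receptors that signal to NF-kB 15 were tested, 4 were higher and 0 lower, with a median of 0.19. Like the other lists, this one was chosen with earlier results of these data known. Its 4 calls are therefore not read against the share of all tested genes. Il18r1 and Il18rap, the chains of the IL-18 receptor, rose by 1.25 (SE 0.14) and 1.52 (SE 0.18), and Il1rl1, the receptor of IL-33, rose by 1.58 (SE 0.17), each with an edgeR adjusted p of 0.00325. Tnfrsf8, which encodes CD30, rose by 1.54 (SE 0.34, edgeR adjusted p = 0.0341), but it lies on the minus strand and held only 0.135 to 1.39 CPM.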

How the data were processed

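Total RNA was sequenced with a SMARTer Stranded kit, per the labels' protocols. The deposited values are raw read counts per gene symbol, per the submitters' processing notes, which list CASAVA, STAR (2.5.2b and 2.3.0e), HTSeq 0.6.1p1 and build mm9. The roles of the STAR versions, the annotation and the strand setting are not given in the sources used here. HTSeq's 5 summary lines entered no library size or test, and reads in genes made up 29.5 to 35.7% of a library.

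Strand, GC content and exon length came from GENCODE M21 by symbol (54510 of 55453 genes). Genes were filtered with filterByExpr, which left 12411, scaled by TMM and fitted with edgeR 4.0.16 (quasi-likelihood, robust, 4 group means, 12 libraries) in R 4.3.3, and p-values were adjusted by Benjamini-Hochberg over all tested genes. Contrasts were knockout against floxed in males, in females, the mean of both, and the female minus the male contrast. CPM use TMM-scaled library sizes. The pipeline was tested on simulated data.

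Members were taken by the rule of a mean CPM of 1 or more. Values in every library are given for the Rel subunits, any called member and the 8 plus-strand members with the largest absolute log2 fold change over both sexes, and up to 3 examples per role. Nfkbie, Cd83 and Map3k14 were added outside this rule. Members, lists and tests were chosen with earlier results of these data known. Alternatives were RLE scaling, DESeq2 1.42.0, limma-voom 3.58.1, other filters, a replicate block, plus-strand genes only, removal of a GC and length trend (mgcv 1.9.3, 99.3% of tested genes with a value), a myeloid covariate, each sex alone, and libraries left out. Figures used matplotlib 3.10.9.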

Additional observations from a re-analysis of the deposited data

How the results depend on the processing

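Counts of members past the threshold were the same 0 under RLE scaling, both other filters, plus-strand genes only, GC removal, the myeloid covariate and each sex alone. They moved from 0 under 4 alternatives over both sexes. DESeq2 called 1 over both sexes and 1 in females, limma-voom called 11, 11 and, in the difference between the sexes, 5, and leaving out each library in turn gave 0 to 8 over both sexes, 0 to 9 in females, 0 to 0 in males and 0 to 7 in the difference, every count above 0 coming from leaving out female knockout 2. Whether replicate numbers pair the libraries could not be settled, because the check used deviations from means of only 3 libraries. Same-numbered libraries correlated at 0.44 and -0.61 in males and 0.19, 0.28 and -0.22 in females, and 4 of 10 correlated best with their own number. The replicate block called 3 members over both sexes, Chuk, Prkcq and Traf6, where it called 9.81% of all genes, and 0 in the other comparisons. The count over all genes ran from 44 to 4630 over both sexes.

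Of 933 recomputed single-gene values 842 kept their sign and side of the threshold, 38 passed the threshold and 53 changed sign; the causes were not tested. GC removal turned Rela to 0.45 over both sexes and 0.73 in females, Nfkbie to 0.03 and Cd83 to 0.01 over both sexes, and Relb to -0.04 in males. The myeloid covariate turned Relb to 0.32 over both sexes and 0.09 in females, Cd83 to 0.06 over both sexes, Tab3 to 0.12 in males and Nfkb1 to -0.08 in females. Without female knockout 1 and 3 the values over both sexes were 0.33 for Relb, 0.11 for Traf3, 0.17 for Nfkbie and 0.47 for Cd83, and in females 0.58 for Relb, 0.03 for Nfkbid, 0.00 for Traf3, 0.12 for Nfkbie and 0.50 for Cd83. Limma-voom gave -0.01 for Rela, -0.90 for Relb and -0.04 for Traf3 in males and -0.03 for Nfkb1 in females. The replicate block gave -0.05 for Rela, -1.73 for Relb and -0.20 for Traf3 in males. The filter of 5 CPM in 3 libraries gave 0.00 for Rela in males. Nfkb1 in females was 0.00 under RLE, -0.01 under DESeq2 and -0.01 without a filter. Leaving out each library in turn moved Relb over both sexes from -0.94 to 0.08 and in males from -1.40 to 0.66, Cd83 over both sexes from -0.44 to 0.16, and Nfkb1 in females from -0.17 to 0.09. In males it moved Rela from -0.04 to 0.07, Nfkb2 from -1.05 to 0.01, Prkcq from -0.97 to 0.07, Tab3 from -0.82 to 0.24 and Traf3 from -0.09 to 0.42.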
